A study of Rattus norvegicus with 12 samples.

Results

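The 10 genes described here mark T cells and the lymphocytes that kill target cells: Cd2, Cd3d, Cd3e, Cd3g, Cd4, Cd8a, Cd8b, Nkg7, Gzmb and Prf1. They were chosen by symbol, and 10 of 10 were listed among the 25620 genes of the read count table and the 25524 genes of the FPKM table (fragments scaled by gene length and by mapped fragments). The libraries came from full-thickness dorsal skin wounds of male SD rats made diabetic with streptozotocin, an agent toxic to the insulin-producing beta cells, so every group, the control included, was diabetic. Wounds received normal saline (control), dried snail-mucus glue of Achatina fulica (d-SMG), the sulfated glycosaminoglycan isolated from that mucus (s-GAG, labelled GAG), or a commercial alginate dressing (Alg), and wound tissue was collected on day 3, 7 or 14. There was 1 library for each of the 4 treatments on each of the 3 days, 12 in all, and whether a library held tissue of a single rat or of several was not given in the sources used here. The streptozotocin model raises blood glucose by loss of beta cells and does not carry every feature of a human diabetic foot ulcer.

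T cells recognise antigen through a receptor whose signal is passed on by the CD3 chains. The co-receptors CD4 and CD8 bind MHC class II and class I molecules and divide T cells into helper and cytotoxic classes. Cytotoxic T cells and natural killer (NK) cells store perforin and granzymes in granules, and perforin lets granzymes enter the target cell. In the rat, monocytes and macrophages also carry CD4, NK cells carry CD8 alpha chains, and activated macrophages can carry CD8, so these co-receptors are less specific to T cells than the CD3 chains.

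The libraries held between 13748887 and 38302461 reads assigned to genes, and levels are given as CPM (reads scaled to the library size) after scaling by TMM, edgeR's trimmed mean of M-values (TMM-normalized CPM). A pair of libraries stood apart. In the d-SMG day 3 library the 7 keratinocyte markers in the table summed to 46.0 CPM, against 4295 to 28582 CPM in the other 11, while the 9 skeletal muscle markers took 14.0% of its reads, the highest share of the 12. In the s-GAG day 14 library short genes were read more than long genes: relative to the mean of the other libraries of that day, the median of the 3085 shortest genes compared lay 1.90 log2 units above the median of the 3085 longest, and in the other 11 libraries this difference lay between -1.05 and 0.57. Its Ptprc, the CD45 antigen of all leukocytes, had 409 reads, the fewest of the 12. The part of these features in the results below was not tested, and values fitted over several libraries are also given without them. In tissue RNA, fewer cells of a type and less RNA per cell cannot be told apart.

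The CD3 chain genes were few in reads in every library and varied together. Cd3e, whose product pairs with the gamma and delta chains in the receptor complex, had 18 reads in the control, 5 in d-SMG, 60 in s-GAG and 20 in Alg on day 3. On day 7 Cd3e had 64 reads in the control, 102 in d-SMG, 76 in s-GAG and 18 in Alg, and on day 14 it had 57, 105, 31 and 28 in the same order. The s-GAG day 7 library was the largest, at 38302461 reads, and its scaled Cd3e was below control (log2 ratio -1.16). After scaling, Cd3e was lowest in d-SMG on day 3 (0.416 CPM) and highest in d-SMG on day 14 (6.57 CPM), a span of 15.8-fold. Cd3d ran over 32.8-fold, from 6 reads in d-SMG on day 3 to 262 reads in d-SMG on day 14, and Cd3g over 35.9-fold, from 2 reads in d-SMG on day 3 to 125 reads in d-SMG on day 7. Per length, the medians over the 12 libraries were 1.15 FPKM for Cd3e, 2.49 FPKM for Cd3d and 2.70 FPKM for Cd3g.

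In order of level, the 3 highest libraries for Cd3e were d-SMG on day 14, d-SMG on day 7 (4.88 CPM) and the control on day 7 (4.34 CPM). The 95% intervals for counting error of neighbours in this order overlapped (5.37 to 7.96, 3.98 to 5.92 and 3.34 to 5.54 CPM). At the low end, d-SMG on day 3 (0.135 to 0.971 CPM), the control on day 3 (0.453 to 1.21 CPM) and Alg on day 3 (0.603 to 1.52 CPM) also overlapped. All intervals for single libraries cover counting error only, since 1 library a group gives no spread between rats.

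Cd2, an adhesion receptor of T cells and NK cells, was measured on more reads than the CD3 chains, 31 to 288 a library. On day 3 it had 100 reads in the control, 31 in d-SMG, 177 in s-GAG and 86 in Alg. It had 165, 288, 157 and 60 reads on day 7 and 143, 238, 158 and 86 reads on day 14 in the same order of groups. Like the CD3 genes, Cd2 was lowest in d-SMG on day 3 (2.58 CPM) and highest in d-SMG on day 14 (14.9 CPM).

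**Figure D1:**
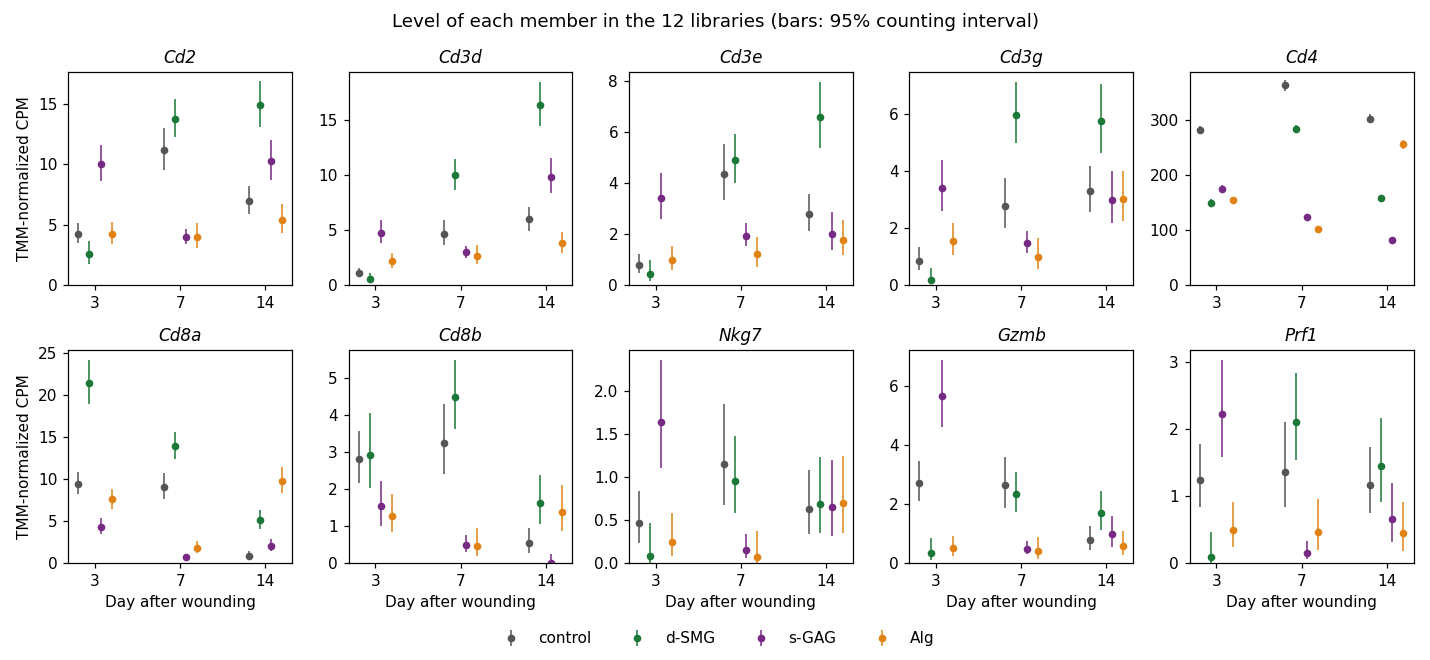
TMM-normalized CPM of the 10 genes (vertical axis, from 0, with its own scale for each gene) on days 3, 7 and 14 (horizontal axis) in wounds of the 4 treatments. Points are single libraries and bars are 95% intervals for counting error. Cd3d reached 16.4 CPM in d-SMG on day 14, Cd8a reached 21.4 CPM in d-SMG on day 3, Gzmb reached 5.67 CPM in s-GAG on day 3, and Cd4 was highest in the control on each day.

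Cd3g, Cd3d and Cd3e lie next to each other on chromosome 8, and their promoter windows are shown because these genes varied together, with the window of Cd8a, which did not vary with them, for contrast. Each window holds 250 bases before and 50 bases after the annotated start in RefSeq for GRCr8 (8 of the 10 genes had a window). It is written 5′ to 3′ on the strand of the gene, and capitals mark matches on either strand to 3 motifs of factors active in lymphocytes, the RUNX letters TGTGGT, the ETS letters AGGAAG and the E-box letters CAGCTG. The windows are at chr8:54183869-54184168 on the minus strand for Cd3g, chr8:54185269-54185568 on the plus strand for Cd3d, chr8:54211721-54212020 on the minus strand for Cd3e and chr4:104923866-104924165 on the plus strand for Cd8a.
Cd3g: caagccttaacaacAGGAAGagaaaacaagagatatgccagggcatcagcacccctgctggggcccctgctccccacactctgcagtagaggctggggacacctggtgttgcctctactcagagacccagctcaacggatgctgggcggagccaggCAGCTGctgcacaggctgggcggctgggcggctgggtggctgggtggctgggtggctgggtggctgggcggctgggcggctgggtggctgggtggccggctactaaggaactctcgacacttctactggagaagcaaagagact
Cd3d: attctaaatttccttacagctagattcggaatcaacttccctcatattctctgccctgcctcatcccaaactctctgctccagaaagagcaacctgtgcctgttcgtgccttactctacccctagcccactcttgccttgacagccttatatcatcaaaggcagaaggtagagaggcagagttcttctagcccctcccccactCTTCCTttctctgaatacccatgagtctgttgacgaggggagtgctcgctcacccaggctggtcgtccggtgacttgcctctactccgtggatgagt
Cd3e: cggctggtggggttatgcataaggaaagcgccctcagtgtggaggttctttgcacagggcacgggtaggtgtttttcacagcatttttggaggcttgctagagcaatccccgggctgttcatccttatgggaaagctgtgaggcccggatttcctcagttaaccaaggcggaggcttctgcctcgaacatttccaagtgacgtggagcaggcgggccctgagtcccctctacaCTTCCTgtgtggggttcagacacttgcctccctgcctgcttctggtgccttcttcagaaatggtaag
Cd8a: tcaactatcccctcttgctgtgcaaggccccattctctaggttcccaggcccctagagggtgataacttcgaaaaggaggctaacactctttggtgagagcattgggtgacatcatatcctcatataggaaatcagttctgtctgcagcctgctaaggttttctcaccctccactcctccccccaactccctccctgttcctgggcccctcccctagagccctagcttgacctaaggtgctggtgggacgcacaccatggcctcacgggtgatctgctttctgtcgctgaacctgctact
Each of the 3 CD3 windows held 1 match to the ETS letters, which 34.5% of all 33469 windows of the table held, and the Cd3g window also held the E-box letters, found in 15.1% of all windows. The Cd8a window held none of the 3 motifs. Among the other genes with a window, Gzmb held 3 matches to the RUNX letters, found in 17.3% of all windows. Cd2, which also varied with Cd3e, held 2 matches to the RUNX letters, 1 to the E-box letters and 0 to the ETS letters. The ETS letters were in 6 of the 8 windows, and whether any motif goes with shared variation was not tested. A match is a run of letters and says nothing of binding.

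Cd4 was by far the most abundant of the 10 genes and did not follow the CD3 genes. It had 6633 reads in the control, 1783 in d-SMG, 3081 in s-GAG and 3123 in Alg on day 3. It had 5343, 5903, 4860 and 1524 reads on day 7 and 6222, 2510, 1256 and 4048 reads on day 14 in the same order. Per length, Cd4 stood at 18.2 to 101 FPKM with a median of 52.0 FPKM, which was 11.4 to 175 times the FPKM of Cd3e in the same library. The largest of these ratios came from the control on day 3 and the smallest from d-SMG on day 14.

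After scaling, Cd4 was highest in the control on each of the 3 days, at 282, 362 and 302 CPM on days 3, 7 and 14. d-SMG stood at 148, 282 and 157 CPM, s-GAG at 175, 124 and 81.6 CPM and Alg at 154, 101 and 255 CPM on the same days. The control levels did not overlap with those of s-GAG or Alg, while the d-SMG level on day 7 was within the control range. On this scale Cd4 was thus lower than the control library of its day in 9 of 9 dressed libraries. Of the 14843 genes that could be compared in all 9, 1.54% were lower throughout. The log2 ratio of dressed to control ran from -1.89 in s-GAG on day 14 to -0.24 in Alg on day 14. Csf1r, the receptor for the growth factor of macrophages, was lower than control in 8 of these 9 libraries, and of the 12 macrophage and monocyte markers 10 were lower in d-SMG, 12 in s-GAG and 10 in Alg on day 3. Of 11 markers compared on later days, 11 were lower in s-GAG and 11 in Alg on day 7, and 9 in d-SMG and 10 in s-GAG on day 14. They were mostly higher, however, in d-SMG on day 7 (8 of 11) and in Alg on day 14 (7 of 11, median log2 ratio 0.55), where Cd4 was still lower than control. The direction of Cd4 depended on the scaling. Relative to Ptprc it was above control in Alg on days 3 and 14 (log2 ratios 0.40 and 0.08). It was also above in s-GAG on days 7 and 14 (0.16 and 0.96), and below in the remaining dressed libraries. The part of macrophage content in the Cd4 levels was not tested.

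**Figure D2:**
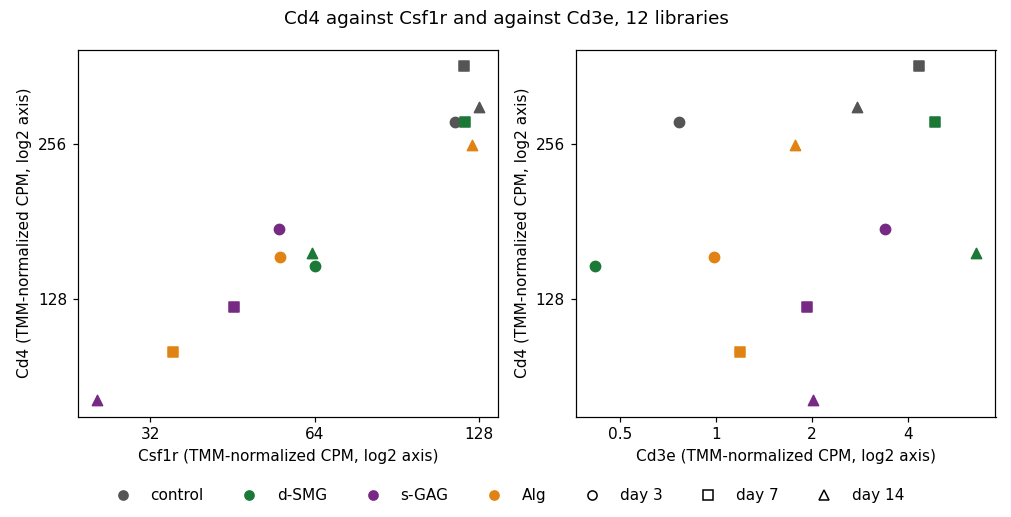
Cd4 (vertical axes) against Csf1r (left) and Cd3e (right), all as TMM-normalized CPM on log2 axes, with 1 point for each of the 12 libraries, colours for the treatments and shapes for the days. Cd4 was high where Csf1r was high (Pearson r = 0.97) and the points against Cd3e were scattered (r = 0.28).

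Cd8a encodes the alpha chain of the CD8 co-receptor and Cd8b the beta chain, which is found with the alpha chain on cytotoxic T cells. Cd8a had 222 reads in the control, 257 in d-SMG, 76 in s-GAG and 153 in Alg on day 3. On day 7 it had 134, 290, 29 and 27 reads and on day 14 it had 18, 81, 31 and 155 reads in the same order. After TMM scaling its highest level, 21.4 CPM (18.9 to 24.2), was in the d-SMG day 3 library, where each CD3 gene was at its lowest. That library had the lowest TMM factor (0.715), and without TMM the d-SMG day 7 library was slightly higher (16.8 against 15.3 CPM by library size, and 10.9 against 10.2 FPKM). Its level in the control was 9.44 CPM on day 3, 9.08 CPM on day 7 and 0.873 CPM on day 14, a day on which the control had 57 reads of Cd3e and 123 reads of Cd3d.

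Cd8b had, in the same order, 66, 35, 27 and 26 reads on day 3, 48, 94, 19 and 7 reads on day 7, and 11, 26, 0 and 22 reads on day 14. The 0 reads in s-GAG on day 14 allow a level of up to 0.195 CPM at 3 reads. Of the reads on Cd8a and Cd8b together, Cd8b took 11.99% in d-SMG on day 3 (exact 95% binomial interval 8.49 to 16.3%) and 22.9% in the control on day 3 (18.2 to 28.2%). Of the reads on Cd8a and Cd4 together, Cd8a took 12.6% in d-SMG on day 3 (11.2 to 14.1%) and 0.288% in the control on day 14 (0.171 to 0.456%), the highest and lowest of the 12 libraries. The other 10 libraries lay between 0.593% and 4.68%.

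Per length, the granule genes were the scarcest of the 10 (medians of 0.55 FPKM for Nkg7, 0.495 FPKM for Gzmb and 0.405 FPKM for Prf1), and after scaling they were highest in the s-GAG day 3 library. For Prf1 this order was within counting error (2.21 CPM, against 2.10 CPM in d-SMG on day 7, and 1.16 against 1.18 FPKM). Gzmb, the serine protease granzyme B, has close copies in the rat genome, and how reads shared between copies were counted is not given in the sources used here. It had 64 reads in the control, 4 in d-SMG, 100 in s-GAG and 10 in Alg on day 3. It had 39, 49, 19 and 6 reads on day 7 and 16, 27, 15 and 9 reads on day 14 in the same order. Prf1, the pore-forming protein perforin, had 29, 1, 39 and 10 reads on day 3, 20, 44, 6 and 7 reads on day 7 and 24, 23, 10 and 7 reads on day 14. Nkg7, a membrane protein of cytotoxic granules, had 11, 1, 29 and 5 reads on day 3, 17, 20, 6 and 1 reads on day 7 and 13, 11, 10 and 11 reads on day 14. On day 14 the 4 libraries were nearly level for Nkg7 (0.630 to 0.693 CPM), whereas on day 3 they spanned 0.0832 to 1.64 CPM.

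On day 3 the dressings parted from the saline control in opposite directions. In s-GAG, 6 of the 10 genes were more than 2-fold above control, where 14.2% of 16426 genes were, and 1 was more than 2-fold below, where 11.4% of genes were. By library size 7 were above and 0 below. The 6 were the CD3 genes, Cd2, Nkg7 and Gzmb. Cd3d was 4.48-fold, Cd3e 4.45-fold, Cd3g 4.001-fold and Cd2 2.36-fold higher, with log2 ratios of 2.16 (95% counting interval 1.51 to 2.87), 2.15 (1.37 to 3.00), 2.0004 (1.25 to 2.81) and 1.24 (0.88 to 1.61). Nkg7 was 3.52-fold and Gzmb 2.08-fold higher, while Cd8a was 2.19-fold lower. Other markers also differed in this library. The keratinocyte markers summed to 11762 CPM against 5173 CPM in the control, the skeletal muscle markers to 36007 CPM against 68812 CPM, and 5 of 5 mast cell markers were higher. The part of these in the result was not tested.

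In d-SMG on day 3, by contrast, 4 genes were more than 2-fold below control and 1 was above, against 13.1% and 9.88% of 15846 genes. This split depended on the scaling, since by library size 8 were below and 0 above. Gzmb was 8.17-fold lower (log2 ratio -3.03, -4.95 to -1.60), and Cd3d was 2.13-fold lower on 6 reads (log2 ratio -1.09, -2.66 to 0.23). Prf1 and Cd3g passed the 2-fold line with 1 read against 29 and 2 reads against 20 (log2 ratios -3.89, -9.24 to -1.30, and -2.35, -5.49 to -0.31), also when 3 reads were set in place of those 1 and 2. Cd8a was 2.27-fold higher (log2 ratio 1.18, 0.92 to 1.45), and 1.65-fold higher by library size. This is the library with few keratinocyte and many muscle reads, and its reads on the 3 CD3 genes came to 0.948 per 100 reads of Ptprc, against 1.43 in the control, 5.51 in s-GAG and 6.05 in Alg on that day. In Alg on day 3, 1 gene was above the line (Cd3d, 2.04-fold) and 3 were below (Gzmb, Prf1 and Cd8b), against 11.4% and 8.79% of 16487 genes. Relative to Ptprc the split turned, with 4 above (Cd2 and the 3 CD3 genes) and 1 below (Gzmb).

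On day 7 the s-GAG and Alg libraries were low in nearly all of the 10 genes. In s-GAG, 8 of 10 were more than 2-fold below control and 0 above, against 12.5% and 11.8% of 16863 genes. In Alg, 9 of 10 were below and 0 above, against 12.1% and 12.3% of 15874 genes. Cd8a had log2 ratios of -3.62 (-4.25 to -3.03) in s-GAG and -2.34 (-3.00 to -1.74) in Alg, Gzmb -2.45 and -2.73, and Cd3e -1.16 and -1.86. Ptprc was also low in these libraries (61.6 CPM in s-GAG and 65.5 CPM in Alg, against 202 CPM in the control), as were 11 of 11 macrophage markers in each. Relative to Ptprc, 4 genes in s-GAG were more than 2-fold below control (Cd8a, Cd8b, Nkg7 and Prf1) and Cd3d was 2.09-fold above, and 2 genes in Alg were below (Cd8b and Gzmb). The direction of the CD3 genes turned on this scale. Their reads came to 10.4 per 100 reads of Ptprc in s-GAG and 7.39 in Alg, against 5.84 in the control, although Cd3e in Alg remained lower (log2 ratio -0.24). In d-SMG on day 7, 2 genes were above (Cd3d, 2.14-fold, and Cd3g, 2.15-fold) and 0 below, against 7.35% and 5.74% of 16164 genes, and 0 were past 2-fold relative to Ptprc.

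On day 14, 6 of the 10 genes were more than 2-fold above control in d-SMG and 0 below, against 12.7% and 16.1% of 16395 genes. These were Cd3d (2.75-fold), Cd3e (2.38-fold), Cd2 (2.15-fold), Cd8a (5.81-fold), Cd8b (3.05-fold) and Gzmb (2.18-fold). Cd4 lay on the other side of control, with a log2 ratio of -0.94 (-1.01 to -0.87). The reads on the CD3 genes came to 16.2 per 100 reads of Ptprc, against 6.29 in the control, and the skeletal muscle markers took 0.664% of the reads, against 5.14% in the control.

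In Alg on day 14, 2 genes were above the line and 1 below, against 9.51% and 11.8% of 16326 genes. Cd8a was 11.2-fold higher on 155 reads against 18 (log2 ratio 3.48, 2.78 to 4.28) and Cd8b 2.60-fold higher, while Prf1 was 2.64-fold lower. In s-GAG on day 14, 1 gene was above (Cd8a, 2.31-fold) and 2 were below (Cd4, 3.70-fold, and Cd8b, 2.74-fold with 3 reads set in place of 0), against 26.6% and 31.1% of 16517 genes. By library size 0 were above and 3 below. The counting interval of Cd8b, on 0 reads against 11, reached up to a log2 ratio of -0.91, which is short of 2-fold. Cd3d and Cd3e, which varied together over the libraries, lay on opposite sides of control here (log2 ratios 0.73, 0.37 to 1.08, and -0.46, -1.14 to 0.20). This was the library in which short genes were read more, and Ptprc was so low that 9 of the 10 genes were more than 2-fold above control relative to it.

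**Figure D3:**
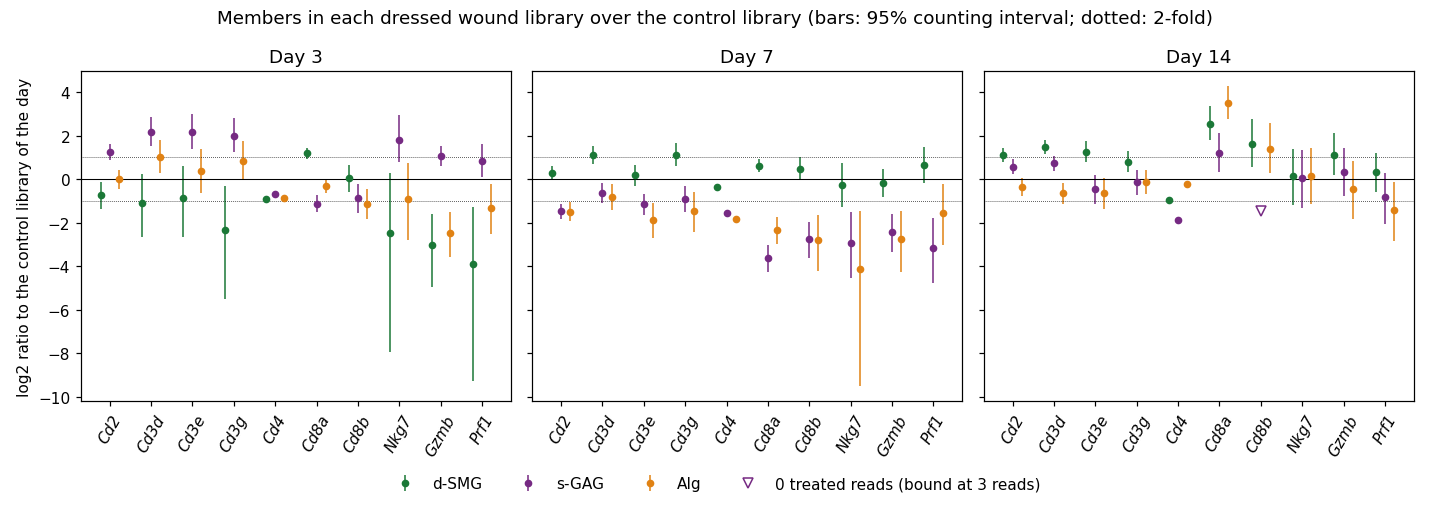
log2 ratio of each dressed library to the control library of the same day (vertical axis) for the 10 genes (horizontal axis) on days 3, 7 and 14. Bars are 95% intervals for counting error, dotted lines mark 2-fold, and the open triangle marks 0 reads, drawn with 3 reads in their place. The CD3 genes in s-GAG lay at about 2 on day 3, s-GAG and Alg lay below 0 for all 10 genes on day 7, and Cd8a lay above 0 in each dressing on day 14.

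With the 3 days taken as replicates of a treatment, none of the 10 genes passed an FDR of 0.05 in any treatment. edgeR's quasi-likelihood test with Benjamini-Hochberg adjustment called 0 of 10, and 0% of the 15672 genes tested, for d-SMG, 0% for s-GAG and 0% for Alg against control. At an unadjusted p under 0.05 it gave 210, 1451 and 472 genes, and DESeq2 called 8, 287 and 84 genes, of which 0 were among the 10. All 10 genes passed the filter on low counts. The p-values measure the spread of single libraries left after day and treatment were fitted to all 12 libraries, and not the spread between rats of a group.

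The smallest p-values of the 10 genes were those of Cd4 in each treatment. In s-GAG its log2 fold change was -1.28 ± 0.46 (SE), with an interval of -2.31 to -0.25, an unadjusted p of 0.0198 and an adjusted p of 0.501 by the quasi-likelihood test. It was -0.88 ± 0.46 in Alg and -0.73 ± 0.45 in d-SMG, with adjusted p of 1 for both by the same test. Next in s-GAG was Cd8b (-1.84 ± 0.95, adjusted p = 0.57), next in Alg was Gzmb (-1.94 ± 1.01, adjusted p = 1) and next in d-SMG was Cd3d (0.97 ± 0.76, adjusted p = 1). Cd3e differed from control by 0.48 in d-SMG (interval -1.26 to 2.23), 0.34 in s-GAG (-1.49 to 2.17) and -0.81 in Alg (-2.62 to 0.99), so changes of over 2-fold in either direction were within the interval for d-SMG and s-GAG. Without the d-SMG day 3 library the value of Cd3d in d-SMG was 1.60, and without the s-GAG day 14 library the value of Cd4 in s-GAG was -0.99. Neither call changed.

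The mean levels of the CD3 genes were higher on day 14 than on day 3, within the spread between treatments. With the 4 treatments as replicates of a day, the quasi-likelihood test called 0 of the 10 genes, and 0% of 15354 genes, for day 7 against day 3, 0% for day 14 against day 3 and 0% for day 14 against day 7. It gave 255, 746 and 442 genes at an unadjusted p under 0.05, and DESeq2 called 0, 37 and 7 genes, of which 0 were among the 10. Cd3d stood at 2.12 ± 1.89 CPM on day 3 (SD, n = 4), 5.07 ± 3.40 CPM on day 7 and 9.003 ± 5.54 CPM on day 14. Its log2 fold change from day 3 to day 14 was 1.94 ± 0.70 (unadjusted p = 0.021, adjusted p = 0.893 by edgeR). It was 1.17 ± 0.71 from day 3 to day 7 and 0.76 ± 0.65 from day 7 to day 14. Without the d-SMG day 3 library, the day 14 to day 3 value of Cd3d was 1.35, and without the s-GAG day 14 library it was 2.01.

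Cd2 stood at 5.28 ± 3.27, 8.23 ± 5.01 and 9.38 ± 4.20 CPM on days 3, 7 and 14 (SD, n = 4), and Cd3e at 1.39 ± 1.36, 3.09 ± 1.80 and 3.28 ± 2.24 CPM. Cd8b stood at 2.13 ± 0.85 CPM on day 3 (SD, n = 4), 2.17 ± 2.03 CPM on day 7 and 0.887 ± 0.755 CPM on day 14, with log2 fold changes of -1.58 ± 0.86 from day 3 and -1.14 ± 0.86 from day 7 (adjusted p = 0.893 and 0.904 by edgeR). For Cd3e the log2 fold change was 1.05 ± 0.73 from day 3 to day 7 (adjusted p = 0.998 by edgeR). Cd4 stood at 190 ± 62.4, 217 ± 126 and 199 ± 98.7 CPM on days 3, 7 and 14, and its log2 fold change from day 3 to day 14 was 0.00 with an interval of -0.90 to 0.91.

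Over the 12 libraries Cd3e was correlated with Cd2 (Pearson r = 0.92), Cd3d (r = 0.91) and Cd3g (r = 0.92) on log2 CPM, each with an adjusted p of 0.00012 in a permutation test over a family of 12 pairs. Spearman's rho was 0.90 for Cd2, 0.92 for Cd3d and 0.87 for Cd3g, with adjusted p of 0.00144, 0.00096 and 0.0015 by permutation. With the lowest and highest libraries for Cd3e left out (d-SMG on day 3 and on day 14), r was 0.86, 0.80 and 0.86, and within days it was 0.92, 0.90 and 0.90. Without d-SMG on day 3 alone these were 0.89, 0.86 and 0.89, and without s-GAG on day 14 they were 0.95, 0.96 and 0.92.

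The granule genes had lower values with Cd3e, and the difference was not tested. r was 0.73 for Nkg7 and 0.71 for Prf1 (adjusted p = 0.0216 and 0.0261 by permutation; rho 0.73 for both, adjusted p = 0.0162), and 0.57 for Gzmb (adjusted p = 0.0864; rho 0.55, adjusted p = 0.115). Without the same extreme libraries r was 0.69, 0.53 and 0.47, so the relation of Prf1 and Gzmb to Cd3e rested in part on these, and within days it was 0.83, 0.81 and 0.83. Among themselves the granule genes had r of 0.83 for Nkg7 and Gzmb, 0.83 for Nkg7 and Prf1 and 0.87 for Gzmb and Prf1, given as a description. Cd2 had an r of 0.83 with Nkg7 and 0.80 with Prf1, Cd3g and Nkg7 had an r of 0.77, and no grouping of the genes was tested.

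The co-receptors stood apart from Cd3e. r was 0.28 for Cd4 (rho 0.39, adjusted p = 0.503 and 0.278 by permutation), -0.19 for Cd8a (rho -0.18, adjusted p = 0.613 and 0.62) and 0.05 for Cd8b (rho 0.22, adjusted p = 0.852 and 0.584). Cd8a and Cd8b varied together (r = 0.76), and Cd4 and Cd8b had an r of 0.70, both as a description. Cd4 was correlated with Csf1r at r = 0.97 (rho 0.87, adjusted p = 0.00012 and 0.0015 by permutation). The Csf1r levels left a gap between 64.0 and 116 CPM. Among the 7 libraries below it, where Cd4 stood at 81.6 to 175 CPM, r was 0.95, and the 5 libraries above it, with Cd4 at 255 to 362 CPM, were too few for a value. Cd3e and Csf1r had an r of 0.20 (rho 0.16, adjusted p = 0.613 and 0.62), and Cd8a and Csf1r an r of 0.43 (rho 0.48, adjusted p = 0.252 and 0.171) that was 0.77 without s-GAG on day 7 and the control on day 14.

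**Figure D4:**
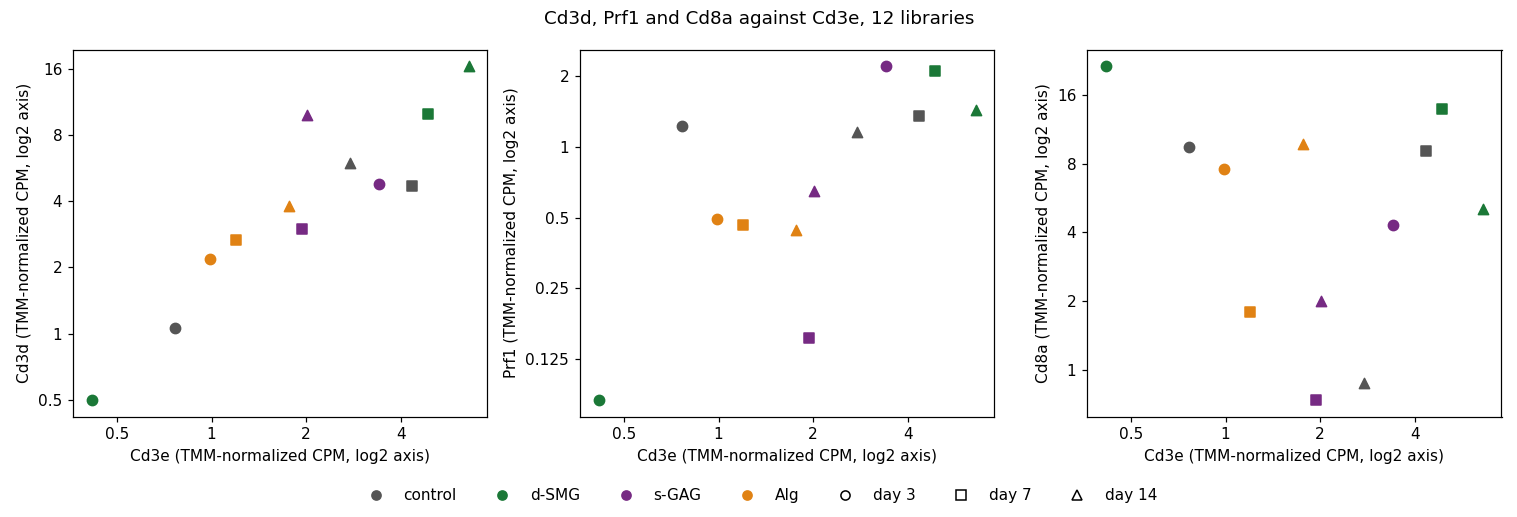
Cd3d, Prf1 and Cd8a (vertical axes) against Cd3e (horizontal axes), all as TMM-normalized CPM on log2 axes, with 1 point for each of the 12 libraries, colours for the treatments and shapes for the days. Cd3d followed Cd3e (r = 0.91), Prf1 followed it more loosely (r = 0.71), and Cd8a did not (r = -0.19), with d-SMG on day 3 at the lowest Cd3e and, on this scale, the highest Cd8a.

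The genes most like Cd3e over the 12 libraries, among 15662 other genes, included Zap70 and Cd247 of the T cell receptor pathway. The 10 with the highest r, 0.90 to 0.97, were B4galnt1, Zap70, Baiap3, Cd247, Agap2, Septin1, LOC102554731, LOC120102394, Sema4a and Ctsw. Zap70 (r = 0.94) is the kinase that docks on the phosphorylated receptor, Cd247 (r = 0.93) encodes the zeta chain of the complex, and Ctsw (r = 0.90) encodes cathepsin W of cytotoxic lymphocytes. Lck, the kinase that starts the signal, ranked 15 (r = 0.89), while Lat, the adaptor downstream of Zap70, ranked 2050 (r = 0.47). For Cd4 the gene with the highest r was Csf1r (0.97), and the first 10 also held Gpr34, a receptor of macrophages and microglia, and Clec4a3, a lectin receptor of myeloid cells. Among the first 10 for Cd8a were Cmklr1 (0.92), a chemoattractant receptor, and Oscar and Ptafr, receptors of myeloid cells. The lists for Cd4 and Cd8a were added after their values were seen. All 3 lists are descriptions over libraries that share the treatments and days.

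The wider T cell receptor and T cell identity list of 25 genes was compared with control on each day, and over all genes compared 48.0 to 53.1% were higher and 46.9 to 52.0% lower. In s-GAG on day 3, 20 of the 24 genes that could be compared were higher than control and 15 were more than 2-fold higher, beside 14.2% of all genes, with a median log2 ratio of 1.32. In d-SMG on day 3, 17 of 23 were lower and 9 more than 2-fold lower, beside 13.1% of all genes, with a median of -0.85. Examples were Bcl11b, a transcription factor of T cell commitment, with 175 reads in the control and 17 in d-SMG, and Sh2d1a, the adaptor SAP, with 89 and 9. Neither followed the list in s-GAG and Alg on day 7, where its median was below control. There Bcl11b had log2 ratios of 0.49 and 0.48, and Sh2d1a 0.07 and 0.86. The part of the few keratinocyte reads of d-SMG on day 3 in these 2 genes was not tested. In Alg on day 3 the list was divided. There 14 of 23 were lower, beside 50.5% of all genes, with a median of -0.31. Of the 23, 3 were more than 2-fold higher and 2 more than 2-fold lower, beside 11.4% and 8.79% of all genes. Cd3d, Cd3e and Cd3g had log2 ratios of 1.03, 0.37 and 0.85 in that library. On day 7 the medians were 0.53 in d-SMG, -0.96 in s-GAG and -0.84 in Alg. On day 14 they were 0.71, -0.67 and -0.22, and Cd3d in s-GAG stood at 0.73 on that day. Lef1 was higher in all 3 dressings on day 14 (517 reads in d-SMG, 1306 in s-GAG and 837 in Alg, against 67 in the control), and it is also a factor of the hair follicle. The quasi-likelihood test over the days called 0 of the 24 genes tested in each treatment, with medians of 0.40, 0.04 and -0.52 for d-SMG, s-GAG and Alg.

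The cytotoxic granule and NK cell list of 25 genes showed the same low d-SMG day 3 library, where 19 of 19 genes were lower than control and 10 more than 2-fold lower, beside 49.8% and 13.1% of all genes. Klrk1, the activating receptor NKG2D, had 564 reads in the control and 44 in d-SMG, and Ncr1, the NK cell receptor NKp46, had 35 and 2. In s-GAG on day 3, 14 of 21 were higher and 10 more than 2-fold higher, beside 48.2% and 14.2% of all genes. Among them were Eomes, a transcription factor of cytotoxic cells (26 reads in the control and 113 in s-GAG), and Ncr1 (86 reads). Of the 7 lower genes 2 were more than 2-fold lower, beside 11.4% of all genes. Gzma, granzyme A, had 44 reads in the control and 9 in s-GAG, and Srgn had 223 and 73. On day 7, 21 of 21 were lower in s-GAG and 18 of 19 in Alg. The test over the days called 0 of 20 genes in each treatment, with 19 of the 20 lower in Alg (median log2 fold change -0.87).

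Of the helper, regulatory and gamma-delta T cell genes, 10 of 13 were higher in d-SMG than in control on day 14. Of the checkpoint genes 5 of 7 were higher and 2 lower, and over all genes compared 49.4% were higher. More than 2-fold higher were 6 of the 13 and 4 of the 7, beside 12.7% of all genes. More than 2-fold lower were 0 of the 13 and 1 of the 7, beside 16.1% of all genes. Among the higher genes, Foxp3, the transcription factor of regulatory T cells, had 83 reads in d-SMG and 10 in the control. Ctla4, an inhibitory receptor, had 81 and 18, and Tnfrsf18, the receptor GITR, 182 and 41. Lag3, an inhibitory receptor, had 40 reads against 10, and the 7 checkpoint genes had a median log2 ratio of 2.25. Over the days, Foxp3 had a log2 fold change of 2.08 ± 0.84 in d-SMG (unadjusted p = 0.0335, adjusted p = 1 by edgeR) and 0 of the 12 helper and regulatory genes tested were called. Foxp3 had 36 reads in d-SMG and 11 in the control on day 3, and 41 and 30 on day 7 (log2 ratio -0.05). It was also higher than control in s-GAG on days 3 and 14 (log2 ratios 1.96 and 2.31), as was Tnfrsf18 in s-GAG on day 14 (191 reads against 41).

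The CXCR3 ligands Cxcl9 and Cxcl10, which draw T cells, were highest in the saline control on day 3. Cxcl10 had 1222 reads there, 10 in d-SMG, 131 in s-GAG and 14 in Alg, and Cxcl9 had 2438, 163, 590 and 316. On day 7 the order differed for Cxcl10, with 3 reads in the control, 25 in d-SMG, 621 in s-GAG and 28 in Alg. After scaling, Cxcl10 stood at 0.203, 1.195, 15.8 and 1.86 CPM in the same order. Cxcl9 stood at 13.35, 20.04, 9.83 and 9.28 CPM on that day. It was above control in d-SMG and below control in s-GAG and Alg. The s-GAG day 3 library had fewer Cxcl9 and Cxcl10 reads than control and more reads of the CD3 genes. Of the chemokine and receptor list, 13 of 14 genes were lower in d-SMG on day 3, with a median log2 ratio of -2.18. On day 14 Ccl19, a ligand of CCR7 that draws T cells and dendritic cells, had 280 reads in d-SMG and 38 in the control. Over the days the test called 0 of the 14 chemokine genes tested, with -1.49 ± 0.57 for Cxcl9 in s-GAG (adjusted p = 0.51 by edgeR).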

How the data were processed

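Total RNA of wound tissue was depleted of ribosomal RNA, made into stranded libraries and sequenced as paired reads. The authors deposited raw read counts per gene and FPKM values for the same libraries. The submitters' processing notes name bcl2fastq, FastQC, TopHat2 and edgeR, while the genome build, annotation and counting tool are not given in the sources used here. Each table held 1 further column of values that matched no described sample and was not used. Groups came from the treatment labels. The members and gene lists were chosen with earlier results of these data known.

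From the deposited counts, edgeR 4.0.16 in R 4.3.3 fitted day and treatment to all 12 libraries (TMM scaling, filterByExpr, quasi-likelihood test, FDR of 0.05). Dressed and control libraries of a day were compared without a test, as ratios of scaled reads with exact binomial intervals for counting error, and genes past 2-fold were counted where the libraries together held at least 10 reads, with 3 reads set in place of fewer. The deposited FPKM values were used to compare levels between genes, and as an alternative scale for some levels and ratios between libraries. Correlations used log2 CPM and 100000 permutations (numpy 2.4.6). The treatment model was also run on simulated counts, for d-SMG against control only. Changes were set only in genes above the level of most of the 10 members, so calls at their levels were not tested. Named were the 10 members, from each other list at most 4 genes a comparison with the largest log2 fold change, and the 10 genes most like Cd3e. DESeq2 1.42.0, other scalings, other filters and leaving out libraries were alternatives. Totals of 13748887 to 38302461 reads limit the precision of genes with few reads.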

Additional observations from a re-analysis of the deposited data

Results flagged for a closer look

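Nkg7, the granule membrane protein, lay below the control library in all 3 dressings on day 7 (median log2 ratio -2.91) and above it in all 3 on day 14 (median log2 ratio 0.127). The difference between the days was not tested. On day 14 the ratios rested on 10 to 13 reads a library and each interval for counting error included 0, as did that of d-SMG on day 7 (log2 ratio -0.27, -1.28 to 0.76). By FPKM s-GAG on day 14 (0.49) was below control (0.61).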

How the results depend on the processing

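The number of the 10 genes called was 0 in all 33 alternatives for the treatments and all 36 for the days, which covered RLE and library-size scaling, DESeq2, no low-count filter, fits without day (no replicate block) or treatment as a term, fits to the groups compared alone, leaving out each day or treatment, and leaving out the d-SMG day 3 or the s-GAG day 14 library, the last of these chosen after seeing the data. The 12 named fold changes kept their sign and side of the threshold in 138 of 138 alternatives. For Cd4 the range was -0.95 to -0.49 in d-SMG, -1.69 to -0.99 in s-GAG and -1.32 to -0.53 in Alg, and for Cd3d from day 3 to day 14 it was 1.35 to 2.44. Day paired dressed with control libraries as the block of the fit, and without that replicate block 0 of the 10 genes were called in each treatment. Of 54 alternative counts of genes past 2-fold, 42 stayed within 1.5 times. These counts take both directions together and do not show a change of direction. With FPKM and a pseudocount of 1, which understates low genes, the counts were 2 for d-SMG, 4 for s-GAG and 1 for Alg on day 3, 5 for s-GAG on day 7, and 1 for s-GAG and 1 for Alg on day 14. With a pseudocount of 0.1 Alg on day 3 gave 2, and by library size d-SMG on day 3 gave 8, of which 0 were higher. Relative to Ptprc, day 7 gave 0 for d-SMG, 5 for s-GAG and 2 for Alg, and s-GAG on day 14 gave 9. Alg on day 3 gave 4 higher and 1 lower on that scale, against 1 and 3 with TMM. The cause of these shifts was not tested. Of 48 alternative correlations 43 moved by less than their error. The r of Cd3e and Gzmb within days was 0.83. Each gene but Cd2, Cd4 and Cd8a had under 10 reads in some libraries, where intervals for counting error were wide (Nkg7 in d-SMG on day 3, log2 ratio -7.92 to 0.29).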
